A study of Homo sapiens with 21 samples.

Results

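The cytosolic ribosome is built from ribosomal RNA and ribosomal proteins, and the mRNA of the genes for these proteins was followed in SK-N-BE(2) cells. A gene was taken as a member if it is protein coding and its symbol is that of a ribosomal protein of the large subunit (RPL), the small subunit (RPS, with RPSA) or the stalk (RPLP0, RPLP1 and RPLP2). This gave 84 genes of 60728 in the deposited table, of which 19988 are protein coding. They are 49 RPL, 3 RPLP and 32 RPS genes. Of these, 77 encode the core proteins and 7 are paralog-like genes (RPL3L, RPL7L1, RPL10L, RPL22L1, RPL26L1, RPL39L and RPS27L), whose products resemble a core protein. The choice used symbols and not measured values, but it was made with earlier results of these data known.

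Ribosomal proteins are made in near-equal amounts, and a cell that grows spends a large part of its transcription on them. Their mRNAs start with a C followed by a run of pyrimidines, the TOP motif, through which mTOR and LARP1 control their translation, and MYC and MYCN are known to act on their transcription. Each protein has many processed pseudogenes in the human genome, so reads can be shared between copies.

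SK-N-BE(2) is an established neuroblastoma cell line with amplified MYCN. RNA was sequenced in 21 libraries at 72 h after lentiviral transduction, with 3 libraries in each of 7 conditions. Control cells received a non-silencing shRNA (a short hairpin RNA that lowers its target transcript), and the rest form a pair labelled shARID1A.2 and shARID1A.4, a pair labelled shARID1B.2 and shARID1B.3, and a combined pair, shARID1A/B.2.3 with shARID1A/B.4.2, named after the BAF chromatin remodeller subunits ARID1A and ARID1B. Nothing in the labels says that the libraries of a condition came from separate cultures, so p-values measure the spread between these libraries, which may be technical. All data are from a single cell line, and in such bulk RNA fewer cells of a kind cannot be told apart from less RNA per cell. A value is a read number over the size factor of its library, and libraries held 27954334 to 41077638 reads.

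The targeted genes did not follow the labels. ARID1A was 6097 to 6463 and ARID1B 5791 to 5804 in the Control libraries. Both were low in the libraries labelled shARID1A.2 (ARID1A 2109 to 2169, ARID1B 2224 to 2252) and shARID1A.4 (2157 to 2289 and 3065 to 3126). ARID1A was the gene reduced most in those labelled shARID1B.2 (ARID1A 1882 to 1962, ARID1B 4913 to 5056) and shARID1B.3 (2450 to 2507 and 6038 to 6182), where ARID1B had log2 fold changes of -0.21 (limma adjusted p = 1.45e-08) and 0.07. ARID1B was the gene reduced most in those labelled shARID1A/B.2.3 (ARID1A 5510 to 5752, ARID1B 2540 to 2651) and shARID1A/B.4.2 (5352 to 5589 and 1881 to 1955), and ARID1A had smaller falls there (-0.16 and -0.21). Thus the single-gene label shARID1A stood on libraries low in both genes, and the label of the combination on libraries low mainly in ARID1B. Labels are kept as written below.

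The 10 neuroblastoma markers were all detected, with MYCN the highest, and summed to 204241 to 210029 in Control libraries. Their sums were 166898 to 171766 in shARID1A.2, 491902 to 511137 in shARID1A.4, 135189 to 142701 in shARID1B.2, 210655 to 239137 in shARID1B.3, 290542 to 298087 in shARID1A/B.2.3 and 171661 to 181894 in shARID1A/B.4.2. MYCN made up most of the sum in Control libraries, and without it the other 9 markers summed to 83886 to 85837 there. In the silenced conditions they summed to 76428 to 76656, 81376 to 84268, 57877 to 62171, 62546 to 73447, 74313 to 78722 and 85455 to 97395 in the same order. Thus shARID1B.3 lay above Control with MYCN and below it without, and shARID1A/B.4.2 lay below Control only with MYCN. Of the 10 markers 3, 4, 1, 3, 5 and 4 rose and 5, 3, 8, 7, 5 and 5 fell in the 6 conditions. Among all genes tested, 31.6% to 37.9% rose and 32% to 38.2% fell across these conditions. A count near those shares is no result about the markers. The 6 stroma genes were detected too, led by COL1A1 (12727 to 13040 in Control libraries) and lowest for COL1A2 (16.4 to 20.1). They summed to 35281 to 35848 in Control libraries, and to 12269 to 13493, 13445 to 13672, 32067 to 33473, 29044 to 30684, 19414 to 19748 and 14507 to 15144 in the silenced conditions in the same order. Of these 6 genes 4, 6, 3, 3, 6 and 5 fell and 2, 0, 2, 1, 0 and 0 rose, to be read beside the same shares of all genes. The part of these marker changes in the results below was not tested.

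**Figure D1:**
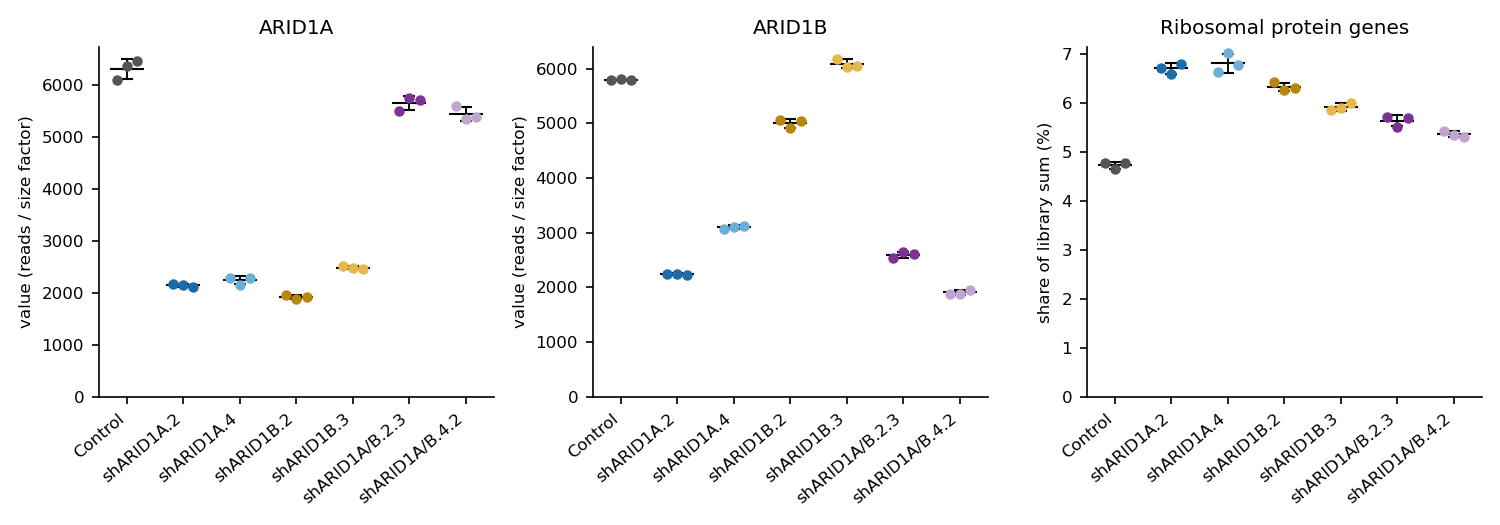
ARID1A value, ARID1B value (reads divided by the size factor) and the share of the library sum in the 84 ribosomal protein genes, in each of 21 libraries by labelled condition. Dots are libraries, and bars are the mean ± SD of 3. ARID1A is at most 2507 in the libraries labelled shARID1A and shARID1B, ARID1B at most 3126 in those labelled shARID1A and shARID1A/B, and the share is above Control in all 6 silenced conditions. The denominator of the share, the library sum, was lowest in shARID1A.2, shARID1B.2 and shARID1A/B.4.2.

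The start of several members, with 25 bases on each side, is shown because the TOP motif begins there. The sequences are from RefSeq on GRCh38.p14, 5′ to 3′ on the strand of the gene, and capitals mark a C-led pyrimidine motif on the gene strand, which is CTTTT for the first kind, CTTTC for the next and CTTCC for the last, or the ETS-type motif CCGGAAG. A sequence with no capitals held none of these exact strings. It can still hold another C-led run of pyrimidines, as the RPLP0 sequence does near its middle. RPL28, RPL13A, RPLP0, RPL12 and RPL15 (3 starts) are core members that were among the 3 largest rises in at least 2 conditions, RPLP2 and RPS15 rose in few conditions, and RPL22L1, RPL7L1 and RPS27L are paralog-like members described below.
RPL28 (chr19:55385907-55385956, +): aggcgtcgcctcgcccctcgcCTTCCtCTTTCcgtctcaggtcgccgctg
RPL13A (chr19:49487583-49487632, +): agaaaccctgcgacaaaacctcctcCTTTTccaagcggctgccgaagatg
RPLP0 (chr12:120201087-120201136, -): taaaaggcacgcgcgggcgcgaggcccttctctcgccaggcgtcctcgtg
RPL12 (chr9:127451382-127451431, -): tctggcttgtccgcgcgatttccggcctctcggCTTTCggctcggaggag
RPL15 (chr3:23916520-23916569, +): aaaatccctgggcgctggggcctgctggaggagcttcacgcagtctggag
RPL15 (chr3:23917073-23917122, +): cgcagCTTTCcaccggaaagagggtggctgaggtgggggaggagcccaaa
RPL15 (chr3:23917107-23917156, +): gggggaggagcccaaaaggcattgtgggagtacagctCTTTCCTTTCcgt
RPLP2 (chr11:809942-809991, +): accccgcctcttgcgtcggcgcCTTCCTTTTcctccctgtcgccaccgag
RPS15 (chr19:1438371-1438420, +): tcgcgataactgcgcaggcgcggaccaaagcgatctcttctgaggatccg
RPL22L1 (chr3:170870171-170870220, -): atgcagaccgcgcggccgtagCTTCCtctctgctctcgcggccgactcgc
RPL7L1 (chr6:42879591-42879640, +): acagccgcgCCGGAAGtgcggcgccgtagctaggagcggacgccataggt
RPS27L (chr15:63157453-63157502, -): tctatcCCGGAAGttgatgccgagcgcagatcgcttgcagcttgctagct

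A promoter entry was found for 67 of the 84 members (62 core and 5 paralog-like), with 83 windows in all since some genes have several starts. Of 77 core windows, 60 (77.9%) held a C-led pyrimidine motif within 25 bases of the start, against 7587 of 35116 windows of all genes (21.6%). The 6 windows of paralog-like members held one in 2 (33.3%), in both cases CTTCC. The motif CCGGAAG, searched on both strands over the whole 300 bases, was in 26 of 77 core windows (33.8%) and 2 of 6 paralog-like windows, against 10.3% of all windows, and its reverse complement contains CTTCC. The E-box CACGTG stood in 4 core windows (5.19%) and in 7.26% of all. These matches describe letters and say nothing on binding.

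In Control cells the members' shares added up to 4.72% ± 0.07 of the library sum (SD, n = 3), with 2.70% in the large subunit and stalk and 2.02% in the small subunit. Per kb of the annotated principal transcript, RPS2, RPS24 and RPS7, all of the small subunit, had the highest Control levels of the core (69820, 65870 and 62970 per kb). RPL28, RPL14 and RPL37 had the lowest (1226, 1366 and 2713 per kb). These low values rest on principal transcripts of 4796, 7072 and 7686 bases and would be higher with a shorter transcript. RPL3L was at 1 to 5 in the Control libraries and RPL10L at 0, and these 2 genes were too low to be tested, which leaves 82 members.

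The share of the library in members was higher in all 6 silenced conditions, and no library of any overlapped the Control libraries (4.64% to 4.77%). It was 6.59% to 6.80% in the libraries labelled shARID1A.2 and 6.63% to 7.02% in those labelled shARID1A.4, 1.42-fold and 1.44-fold the Control mean. In those labelled shARID1B.2 and shARID1B.3 it was 6.26% to 6.42% (1.34-fold) and 5.85% to 5.995% (1.25-fold). In those labelled shARID1A/B.2.3 and shARID1A/B.4.2 it was 5.50% to 5.72% (1.19-fold) and 5.31% to 5.43% (1.13-fold). A share is a score over the members and carries no test. It also rises when its denominator, the library sum, falls. The library sum was lowest in shARID1A.2, shARID1B.2 and shARID1A/B.4.2, where the ratios thus exceed the change in summed member values. In shARID1A/B.4.2 the member median log2 fold change was -0.013, and -0.007 with libraries rescaled to summed members. The summed member values thus hardly changed there. The member medians of shARID1B.2 and shARID1B.3 were 0.276 and 0.277. The summed share of the large subunit with the stalk had a larger ratio to Control than that of the small subunit in each condition. The ratios went from 1.48 against 1.39 in shARID1A.4 to 1.16 against 1.10 in shARID1A/B.4.2. By the median log2 fold change of core members, shARID1B.2 went the other way (0.276 in the large and 0.302 in the small subunit), and the other conditions did not. The share of mitochondrially encoded genes also stood above Control (6.35% to 6.63%) at 6.66% to 8.20%, and ribosomal protein pseudogenes (1211 rows) held 0.03% of Control values and 0.67 to 0.78 per 100 member values throughout. Whether the mitochondrial share has a part in the change was not tested.

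Member by member, 5 of the 6 conditions had many more genes that rose than fell against Control. In shARID1A.2, 71 of 82 members rose (86.6%) and 4 fell (4.88%), where 37.9% of all 18584 genes tested rose and 38.2% fell, and the median log2 fold change was 0.33 for members and 0.02 for all genes. Those labelled shARID1A.4 had 78 members higher (95.1%) and 2 lower, against backgrounds of 37% and 36.6%, with a median of 0.50. In shARID1B.2, 72 rose and 2 fell (background 31.6% and 34%), with a median of 0.28. In shARID1B.3, 78 rose and 2 fell (31.9% and 32%), with a median of 0.28. The libraries labelled shARID1A/B.2.3 gave 64 higher and 9 lower (35.2% and 34%), with a median of 0.20. The 6 comparisons share the same Control libraries. All calls are limma's at an adjusted p-value below 0.05.

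The libraries labelled shARID1A/B.4.2 stood apart, with 21 members higher (25.6%) and 32 lower (39%), near the background of 35.1% and 36.1%, and a median of -0.01. This split turned with the scaling, to 64 higher and 5 lower (median 0.17) when libraries were scaled to total reads, and to 30 higher and 22 lower with TMM normalization in edgeR. Under total reads the median of all genes in that comparison was 0.20, so the members lay below it. This scaling also set the all-gene median at 0.19 in shARID1A.2 and 0.15 in shARID1B.2, beside member medians of 0.50 and 0.41.

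**Figure D2:**
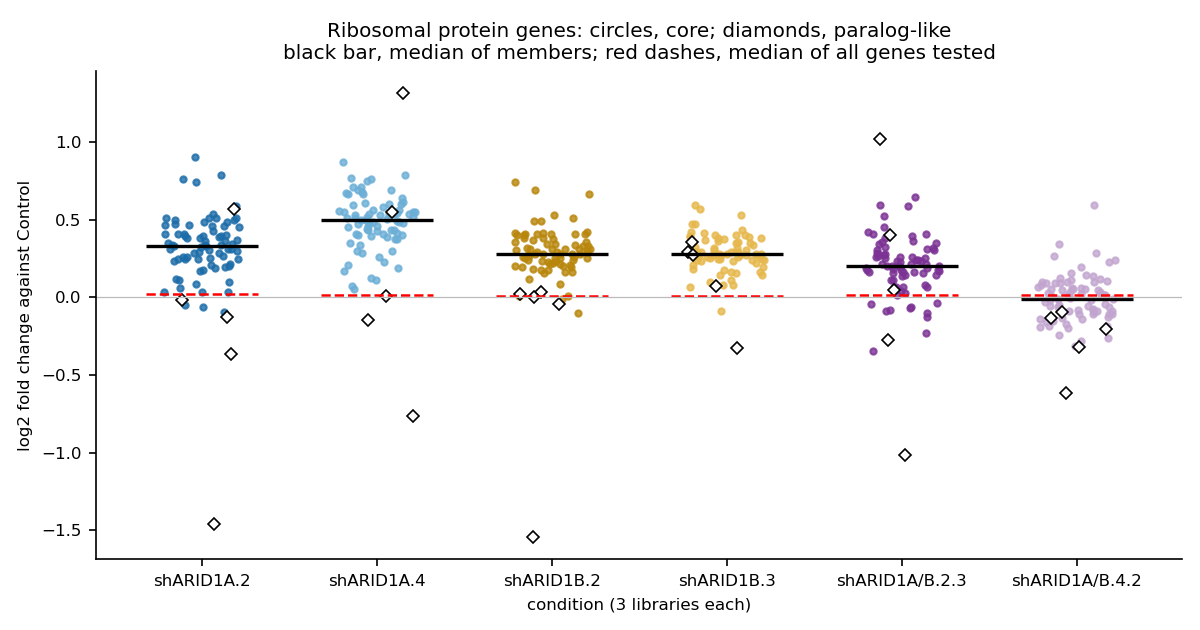
Log2 fold change against Control of the 82 tested members in each silenced condition. Circles are core genes, diamonds paralog-like genes, the black bar the median of members and the red dashes the median of all genes tested. Member medians stand at 0.33, 0.50, 0.28, 0.28, 0.20 and -0.01 from left to right, with RPL7L1, RPL22L1 and RPL39L far from the rest.

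Removing trends with GC content and transcript length lowered the member medians to 0.16 and 0.41 in the shARID1A pair, 0.21 and 0.16 in the shARID1B pair, and 0.16 and -0.16 in the combined pair (the condition listed first above given first), and raised the number that fell to 16 in shARID1A.2 and 57 in shARID1A/B.4.2. Among non-member protein-coding genes, those with transcripts under 1 kb had medians of 0.02 to 0.10 and those over 4 kb of -0.17 to -0.04 across the conditions.

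Of the stalk and ribosome-surface proteins, RPLP0, the core of the stalk, was 42245 to 43937 in Control libraries. It was 72044 to 74240 in shARID1A.2, 70371 to 74891 in shARID1A.4 and 51562 to 53811 in shARID1A/B.4.2, so every library lay above Control. Its log2 fold change was 0.76 (SE 0.025, adjusted p = 5.37e-19) in shARID1A.2, 0.75 in shARID1A.4, 0.69 in shARID1B.2, 0.43 in shARID1B.3, 0.65 in shARID1A/B.2.3 and 0.29 in shARID1A/B.4.2. RPLP1 and RPLP2, its acidic partners, did not follow it in every condition. RPLP1 had log2 fold changes of 0.03 (not called), 0.51, 0.24, 0.29, 0.34 and -0.13 in the same order, and the last turned positive under total reads. RPLP2 was 16467 to 16818 in Control libraries and 16101 to 17699 in shARID1A.2, which overlap. It was called in 3 of the 6 comparisons, at 0.18 in shARID1B.2, -0.08 in shARID1A/B.2.3 and -0.17 in shARID1A/B.4.2, the last of which was 0.018 (not called) under total reads. RPSA, the laminin receptor precursor of the small subunit, was 18276 to 18955 in Control libraries and 24190 to 25317 in shARID1A.4 (0.41). It was 0.19, 0.20, 0.24 and 0.24 in shARID1A.2, shARID1B.2, shARID1B.3 and shARID1A/B.2.3, and -0.14 in shARID1A/B.4.2, where total-read scaling gave 0.047.

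RPL28, a large subunit protein, was 5811 to 5954 in Control libraries and 10056 to 10183 in those labelled shARID1A.2. Its log2 fold changes were 0.78 (SE 0.029), 0.79, 0.74, 0.59, 0.59 and 0.34 (adjusted p = 9.52e-11 in shARID1A/B.4.2). RPL13A, known also for binding inflammatory transcripts outside the ribosome, was 31350 to 32995 in Control libraries and 53461 to 55109 in shARID1A.2, with log2 fold changes of 0.74, 0.77, 0.66, 0.42, 0.52 and 0.27 in the same order. RPL12, at the base of the stalk, was 16396 to 17190 in Control libraries and 29727 to 32389 in shARID1A.4 (0.87, SE 0.031), and 17112 to 18506 in shARID1A/B.4.2 (0.08, adjusted p = 0.0259), a rise that turned to -0.26 once GC and length trends were removed.

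RPL15, a large subunit protein, varied between conditions. It was 10811 to 11082 in Control libraries, 20191 to 20800 in shARID1A.2, 16803 to 18062 in shARID1A.4 and 16428 to 16919 in shARID1A/B.4.2. In shARID1A/B.2.3 it was 11093 to 11911. The log2 fold changes were 0.90, 0.66, 0.60 and 0.07, and the conditions of the shARID1A/B label differed by -0.53 (SE 0.026, adjusted p = 3.16e-15). RPL17, of the large subunit, had the largest rise after RPL28 among core members in the libraries labelled shARID1B.3, with 16563 to 17369 against 11122 to 11559 in Control libraries (0.57).

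Core members that fell numbered 1, 0, 1, 1 and 7 of 77 in the first 5 conditions and 27 (35.1%) in shARID1A/B.4.2. The last is near the 36.1% of all genes that fell there and is no result about the members, and the values of single genes follow. RPS10, of the small subunit, was 21163 to 22344 in Control libraries, 20415 to 21411 in shARID1A.2 and 17709 to 18200 in shARID1A/B.4.2. These are log2 fold changes of -0.06 (adjusted p = 0.0488, and 0.11 under total reads) and -0.28, and it was 0.34 in shARID1A.4. RPL3, close to the peptidyl transferase centre, fell to 45657 to 48010 in shARID1A/B.4.2 (-0.31, SE 0.027) from 56517 to 58700, but was 85358 to 91089 in shARID1A.4 (0.60). RPS28 fell by 0.26 on the log2 scale in shARID1A/B.4.2. RPL18 fell in shARID1A/B.2.3, at 9148 to 9562 against 11555 to 12127 in Control libraries (-0.35, SE 0.022), and was 15279 to 16008 in shARID1A.2 (0.41). RPS15 (-0.13, adjusted p = 0.0138) fell with it there. The fall of RPS15 was not called under total reads (-0.096), nor without Control replicate 3 (-0.112) or shARID1A/B.2.3 replicate 2 (-0.094). RPS7 fell by 0.10 on the log2 scale in shARID1B.2 (0.036 under total reads) and rose in shARID1B.3, at 77459 to 80860 against 56169 to 57833. RPS20 went the opposite way, at 25550 to 26977 in shARID1B.2 (0.41) and 18004 to 19109 in shARID1B.3 (-0.09).

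To see how the members changed against each other, each library was rescaled to its own summed member values. On this scale 31 members rose and 33 fell in shARID1A.2 (78% called against 76.8% of all genes). The other conditions had 25 and 32 (69.5% against 76.3%), 27 and 27 (65.9% against 67.7%), 24 and 24 (58.5% against 66.9%), 27 and 32 (72% against 68.6%) and 28 and 34 (75.6% against 70.1%) in the order shARID1A.4, shARID1B.2, shARID1B.3, shARID1A/B.2.3, shARID1A/B.4.2. These shares are near the background or below it, so the counts are no result about the members, and the values of single genes follow. RPL28 exceeded the summed members by 0.45, 0.28, 0.46, 0.30, 0.37 and 0.35, and RPLP0 by 0.43, 0.24, 0.41, 0.14, 0.43 and 0.29. RPL13A exceeded them by 0.41, 0.26, 0.38, 0.13, 0.30 and 0.27. RPS10 lay below them, by -0.40, -0.17, -0.28, -0.11, -0.19 and -0.28, and so did RPLP2 by -0.30, -0.46, -0.11, -0.23, -0.30 and -0.16. RPL18 was 0.075 above them in shARID1A.2 but -0.43 and -0.57 in shARID1A.4 and shARID1A/B.2.3.

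**Figure D3:**
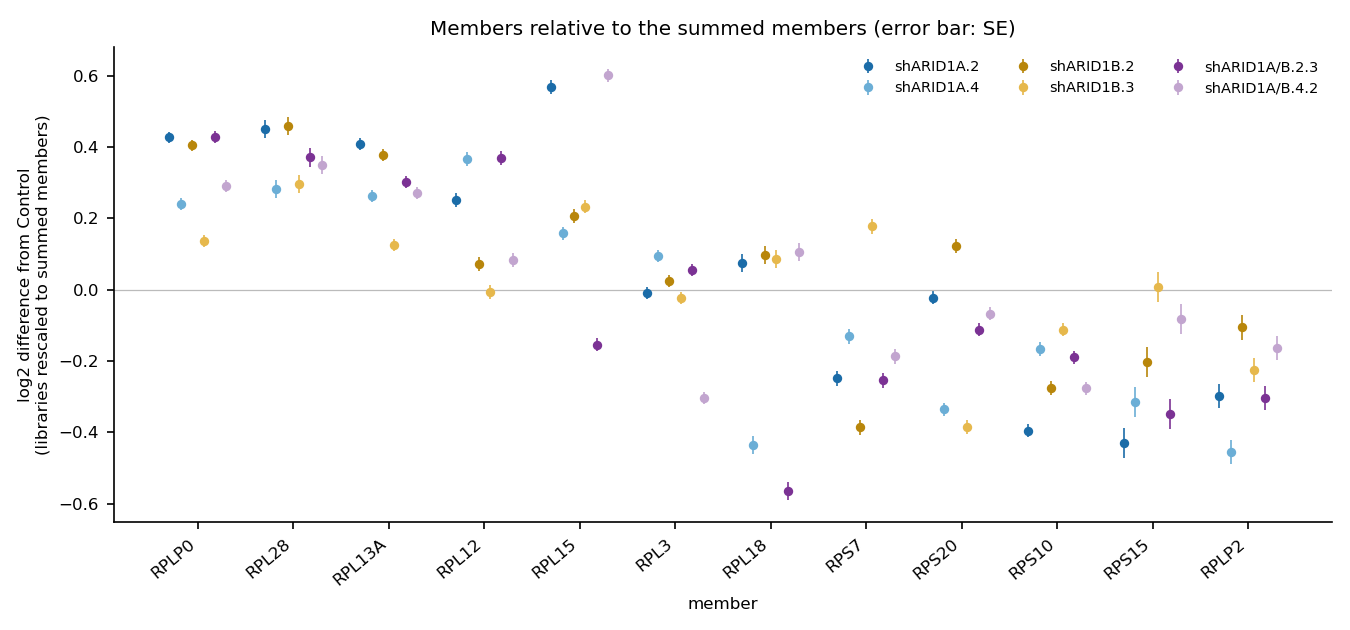
Log2 difference from Control of 12 named members after each library was rescaled to its summed member values, with the SE, by condition. RPLP0, RPL28 and RPL13A stand above 0 in all 6 conditions, RPS10 and RPLP2 below 0, and RPL15, RPL18, RPS7 and RPS20 split between conditions.

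Outside shARID1B.3, the largest change of any tested member was in a paralog-like gene. RPL7L1, a paralog of RPL7, was 12940 to 13213 in Control libraries, and it fell to 4664 to 4840 in the libraries labelled shARID1A.2 and 4450 to 4555 in those labelled shARID1B.2. In shARID1A.4 (12776 to 13398) it overlapped the Control libraries, and in shARID1A/B.2.3 (13326 to 13948) it lay just above them. The log2 fold changes were -1.46 (SE 0.023, adjusted p = 3.08e-25) and -1.54 in the first pair, and 0.01 and 0.05 (not called) in the second. It was also lower in shARID1B.3 (10262 to 10679, -0.33) and in shARID1A/B.4.2 (8503 to 8656, -0.61). The value of RPL7L1 as a percentage of that of its parent RPL7, without correction for length, was 40.6% ± 0.7 (SD, n = 3) in Control, 11.6% in shARID1A.2, 12% in shARID1B.2 and 26.7% in shARID1A.4. Its fall thus differed between the shARID1A conditions (-1.47 on the log2 scale, adjusted p = 2.69e-25) and between the shARID1B conditions (-1.21).

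RPL22L1, paralog of RPL22, was 1121 to 1180 in Control libraries and 2699 to 2979 in those labelled shARID1A.4. It was 2221 to 2471 in shARID1A/B.2.3, and its log2 fold changes there were 1.31 (SE 0.049) and 1.02. It also lay above Control in shARID1A.2 (1653 to 1747, 0.57) and in shARID1B.3 (1402 to 1425). In shARID1B.2 it was 1135 to 1220 (0.03, not called), and in shARID1A/B.4.2 959 to 1112 (-0.13, and 0.055 under total reads). Its ratio to RPL22 was 14.4% in Control, 32.8% in shARID1A.4 and 30.5% in shARID1A/B.2.3, with libraries of 31.9% to 34% and 29.3% to 31.2%.

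RPL39L, a testis-biased paralog of RPL39, was 780 to 864 in Control libraries and 369 to 452 in shARID1A/B.2.3 (-1.02, SE 0.061). It was 481 to 491 in shARID1A.4 (-0.76) and 615 to 680 in shARID1A.2 (-0.36), and it was also lower in shARID1A/B.4.2 (634 to 713). In shARID1B.3 it rose, with 976 to 1027 (0.27). RPS27L, a p53-responsive paralog of RPS27, was 413 to 445 in Control libraries, and 621 to 635 in shARID1A.4 (0.55), 540 to 608 in shARID1A/B.2.3 (0.40) and 527 to 565 in shARID1B.3 (0.36). In shARID1A/B.4.2 it fell to 354 to 397 (-0.21). RPL26L1 was lower in 4 conditions, with log2 fold changes of -0.13, -0.14, -0.28 and -0.10 in shARID1A.2, shARID1A.4, shARID1A/B.2.3 and shARID1A/B.4.2, the first and last of which were 0.043 and 0.090 under total reads. Among parents, RPL7 rose in all 6 conditions on the size-factor scale, though in shARID1A/B.4.2 it was -0.020 without GC and length trends, and RPL22 rose in 5 conditions and was 7460 to 7977 in shARID1A/B.2.3 against 7939 to 8111 in Control libraries (-0.06, adjusted p = 0.0298). This small fall was not called under total reads (-0.026, limma adjusted p = 0.299), nor without Control replicate 1 (-0.050) or shARID1A/B.2.3 replicate 2 (-0.041) or 3 (-0.052).

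**Figure D4:**
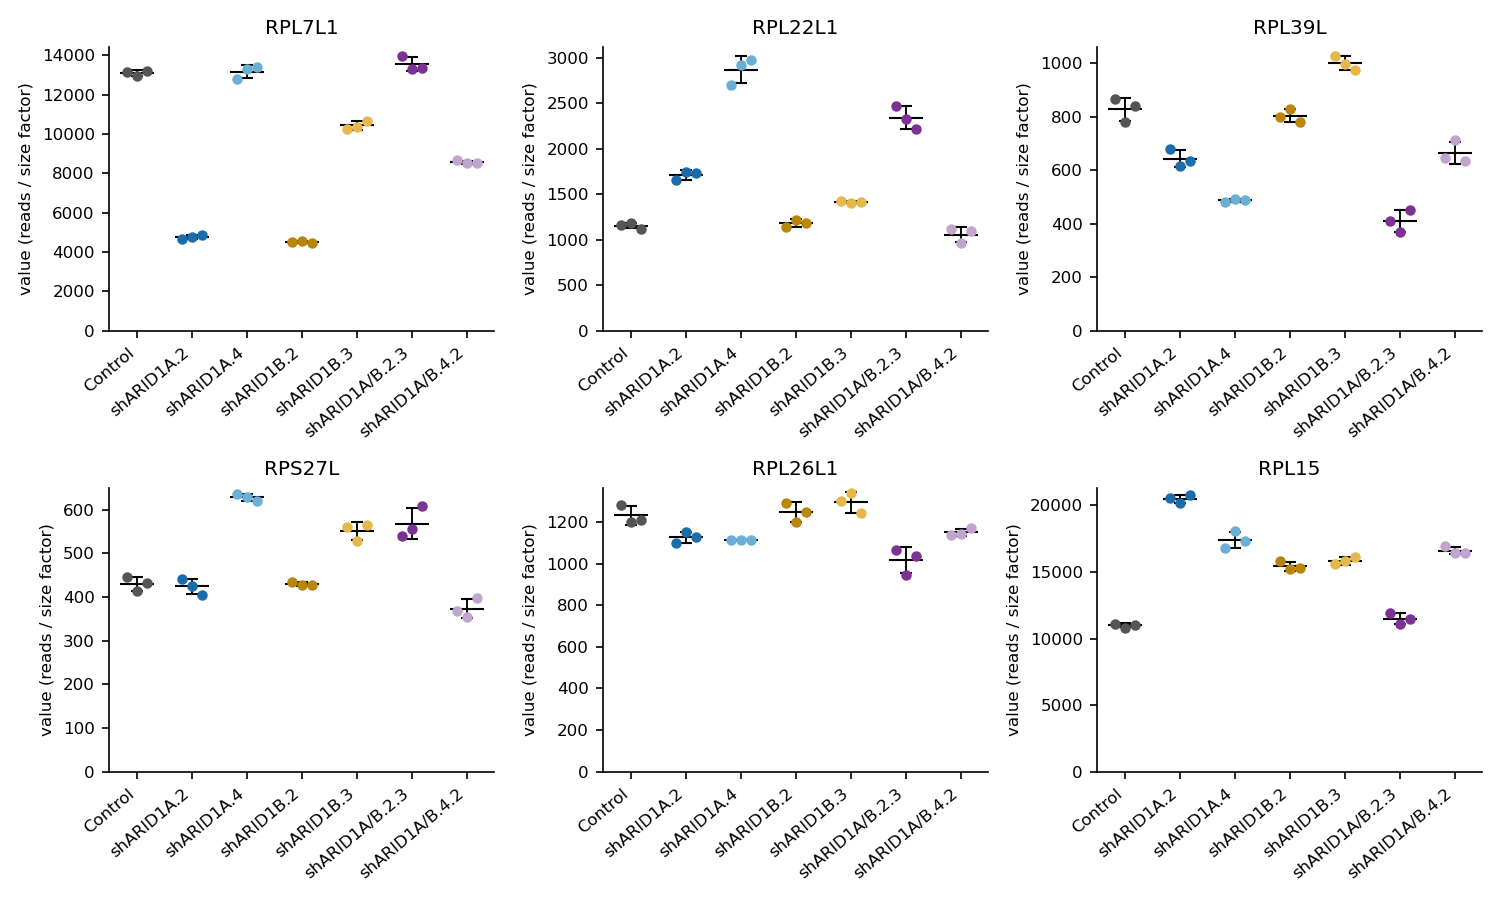
Value (reads divided by the size factor) of RPL7L1, RPL22L1, RPL39L, RPS27L, RPL26L1 and the core gene RPL15 in each of 21 libraries. Dots are libraries and bars mean ± SD of 3. RPL7L1 is 4450 to 4840 in shARID1A.2 and shARID1B.2 against 12940 to 13213 in Control.

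The conditions of one label were also set against each other. For shARID1A.2 against shARID1A.4, 8 members were higher and 60 lower, where 38.4% and 37.3% of all genes were, with a median of -0.19. Scaling to total reads made this 26 and 35 and the median -0.04. The median of all genes was 0.03 before this scaling and 0.18 after it, so the members lay below all genes under both. Between shARID1B.2 and shARID1B.3 the split was 24 and 24 (background 33% and 33%), and 52 and 11 under total reads. The last had a median of 0.10 for members and 0.11 for all genes, so it is no result about the members. For shARID1A/B.2.3 against shARID1A/B.4.2 it was 67 and 8 (37.1% and 37.8%), with a median of 0.22, and 45 and 15 under total reads. With total reads the medians were 0.07 for members and -0.17 for all genes.

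Other genes of translation and ribosome making, from lists chosen with earlier results known, gave the members' surroundings. Their counts stand beside the shares of all genes tested, of which 37.9%, 37%, 31.6%, 31.9%, 35.2% and 35.1% rose and 38.2%, 36.6%, 34%, 32%, 34% and 36.1% fell in the 6 conditions in the order used above. Of 17 TOP mRNA genes outside the rule, 15, 16, 15, 16, 15 and 11 rose and 0, 1, 0, 0, 1 and 4 fell in the same order, with medians from 0.56 (shARID1A.4) to 0.10 (shARID1A/B.4.2). EEF2, the translocase of elongation, was 73862 to 75319 in Control libraries and 146572 to 150888 in shARID1A.4 (0.996). EEF1A1, which delivers aminoacyl-tRNA, was 309898 to 324914 and 484706 to 518947 (0.64). NPM1, of the same list, was 64392 to 66398 in Control libraries and lower in shARID1A.4 (45752 to 48606) and shARID1A/B.2.3 (32798 to 33580). In shARID1A.2, shARID1B.2 and shARID1B.3 the NPM1 values lay above Control. Of 10 snoRNA host genes, whose introns carry the guides of rRNA modification, 9, 7, 9, 7, 7 and 9 rose and 1, 2, 1, 0, 2 and 1 fell, with medians of 1.02, 0.69, 0.55, 0.16, 0.65 and 0.45. SNHG32 was 1.46 in shARID1A.2 and ZFAS1 1.36, while SNHG12 fell in shARID1A.2 (-0.24, and -0.071, not called, under total reads), shARID1B.2 (-0.78) and shARID1A/B.4.2 (-0.36). SNHG1 (-0.16 and -0.23) and SNHG16 (-0.26 and -0.44) fell in shARID1A.4 and shARID1A/B.2.3.

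Of 40 genes of ribosome assembly, 7 rose and 31 fell in shARID1A.2 (median -0.33), 7 and 30 in shARID1B.2 (-0.28) and 6 and 28 in shARID1A/B.4.2 (-0.25). In shARID1A.4 and shARID1A/B.2.3, 25 and 26 rose and 11 and 6 fell (0.13 and 0.18), and in shARID1B.3 17 rose and 18 fell. Under total reads the falling medians were -0.16, -0.14 and -0.07, against an all-gene median of 0.19, 0.15 and 0.20. NOP56, a box C/D snoRNP protein, was -0.41 in shARID1A.2 and 0.11 in shARID1A.4. Of 78 mitochondrial ribosomal protein genes, 27, 48, 18, 41, 43 and 41 rose and 28, 21, 28, 18, 22 and 16 fell, with medians of -0.01, 0.20, -0.02, 0.11, 0.15 and 0.10. The counts of shARID1A.2 are near those of all genes. More of these genes rose than fell in shARID1A.4, shARID1B.3, shARID1A/B.2.3 and shARID1A/B.4.2.

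Of 17 regulators of translation and growth, 7, 9, 5, 10, 11 and 7 rose and 9, 6, 10, 7, 5 and 7 fell. SESN2 and DDIT4, inhibitors of mTOR complex activity, rose in all 6 conditions, with log2 fold changes of 3.52 and 2.38 in shARID1A.4 and 1.63 and 1.51 in shARID1B.2. LARP1, the TOP mRNA binding protein, rose by 1.01 in shARID1A.4, at 29794 to 30469 against 14826 to 15013. EIF4EBP2, a translation repressor, fell in all 6, by 1.44 in shARID1A.2 and 0.30 in shARID1B.3. EIF4EBP1, of the same family, was 2818 to 2923 in Control libraries and went both ways. It was higher in shARID1A.4 (5662 to 6006), shARID1A/B.2.3 (5416 to 5763) and shARID1B.3 (4559 to 4574). It was lower in shARID1A.2 (2034 to 2156), shARID1B.2 (2561 to 2651) and shARID1A/B.4.2 (2280 to 2444). MTOR, the kinase itself, was 2970 to 3044 in Control libraries and was lower in all 6 conditions, with log2 fold changes of -0.30, -0.49, -0.48, -0.34, -0.27 and -0.10, the last of which was 0.090 under total reads. MYCN was 120355 to 124192 in Control libraries, 410526 to 426870 in shARID1A.4 (1.77), 216229 to 221301 in shARID1A/B.2.3 (0.83) and 77312 to 80530 in shARID1B.2 (-0.63). It also rose in shARID1B.3 (0.36) and fell in shARID1A.2 (-0.39) and shARID1A/B.4.2 (-0.53). These are values beside the members, and their part was not tested.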

How the data were processed

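Gene expression was measured by RNA-Seq in SK-N-BE(2) cells, with 3 libraries for each of 7 labelled conditions (21 in all). The submitters' processing notes name STAR 2.5.3a, RSEM 1.3.0, DESeq2 1.26.0 and GRCh38. The values that the authors deposited are a signal, namely the reads of a gene over its library's size factor (0.841 to 1.295). Whole reads were recovered for 100% of values within a tolerance of 0.01. RSEM divides reads between near-identical copies, so values of members with pseudogenes are estimates. The 3 tables of the authors' comparisons hold fold changes and p-values and were not used.

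The main test was limma 3.58.1 in R 4.3.3 with a trend on log2 of the value plus a pseudocount of 1, over all 21 libraries and 18584 genes kept by edgeR's filter, with Benjamini-Hochberg adjustment over all genes and a threshold of 0.05. Fold changes on this scale understate low genes. A second fit rescaled each library to its summed members. Alternatives were edgeR 4.0.16 with TMM and DESeq2 1.42.0 on the recovered reads, scaling to total reads or the upper quartile, other filters and pseudocounts, GC and length trends over 50 bins, the replicate number as a block, only the conditions compared, and each library left out. Replicates differed beyond sampling noise (chi-square per degree of freedom 1.55 to 4.26 over 21 pairs), and each counted as a library. On simulated reads of 18584 genes for shARID1A.2 against Control, limma found 83 of 100 genes changed by 0.5 (log2) and 100 of 100 changed by 1, with 17 false calls. Only 200 genes were changed there, in equal numbers up and down, while 37.9% of genes rose and 38.2% fell in the data. The simulation therefore does not test the scaling between libraries. Gene positions and transcript lengths are from GENCODE release 29 (84 of 84 members matched). Python 3.11.15 with pandas 2.3.3 and matplotlib 3.10.9 was used.

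Genes named are ARID1A and ARID1B, paralog-like members and parents, the stalk and RPSA, the 3 core members with the largest called rise and fall in each condition (mean value of at least 50) on both scales, and the 3 highest and lowest per kb. Members and lists were chosen with earlier results of these data known. Lengths of promoter windows were 300 bases. One member that this rule names is not reported here. Protein sequences were not used here.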

Additional observations from a re-analysis of the deposited data

Results flagged for a closer look

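Members that rose in one condition of a label and fell in the other, with the difference itself past limma's adjusted p-value of 0.05, are given here as differences between the conditions on the log2 scale. RPS10 differed by -0.40 between shARID1A.2 and shARID1A.4 (adjusted p = 2.26e-12), where 17.1% of all 18584 genes tested met the same conditions. Between shARID1B.2 and shARID1B.3, RPS20 differed by 0.50 (7.52e-14) and RPS7 by -0.57 (1.43e-14), against 14.5% of all genes.

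Between shARID1A/B.2.3 and shARID1A/B.4.2, 22 of 82 members did so, against 18.5% of all genes. RPL18 (-0.44) and RPL22 (-0.20) were lower in shARID1A/B.2.3. Those higher in it were RPL22L1 (1.15), RPS27L (0.60), RPL3 (0.58), RPLP1 (0.47), RPSA (0.38), RPS19 (0.37), RPL27 (0.37) and RPL35A (0.36). Smaller differences were RPS27 (0.34), RPS28 (0.33), RPL36A (0.32), RPL8 (0.32), RPS2 (0.31), RPL23A (0.30), RPS27A (0.29), RPL39 (0.29), RPS18 (0.28), RPL24 (0.24), RPS16 (0.23) and RPS20 (0.18). Of these 25 cases in 24 members (RPS20 stands under 2 labels), the opposite directions stood in 25 with upper-quartile scaling, TMM in edgeR and DESeq2, in 19 without GC and length trends and in 6 with total reads (RPS20 in shARID1B, and RPL18, RPL22, RPL3, RPS27L and RPS28). No group has over 3 libraries, so single libraries were not screened for outliers.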

How the results depend on the processing

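The number of members that rose kept within 1.5 times of its value under all alternatives tried in 5 of the 6 conditions, and the exception was shARID1A/B.4.2. There it went from 21 to 64 with total reads and to 11 without GC and length trends, while the number that fell went from 32 to 5, 57 and 56 (the last with the replicate block), and the median of -0.01 became 0.17 (total reads), 0.022 (TMM in edgeR), 0.017 (upper quartile) and -0.16 (GC and length). In shARID1A.2, 4 members fell, and 2 with total reads, 2 with the upper quartile and 16 without GC and length trends, with medians of 0.50, 0.38 and 0.16 in place of 0.33. In shARID1A.4, 1 fell with the upper quartile and 5 without the trends (medians 0.58 and 0.41). For shARID1B.2, 1 fell with total reads and 8 without the trends, with medians of 0.41, 0.30 (TMM) and 0.21. For shARID1B.3, 1 fell with TMM and with the upper quartile and 5 without the trends, with medians of 0.30, 0.30 (total reads), 0.35 and 0.16. In shARID1A/B.2.3, 5 fell with total reads and 4 with the upper quartile, with medians of 0.25 (upper quartile) and 0.16. The share ratio of shARID1A/B.4.2 was 1.15 without mitochondrial genes. The cause was not tested.

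With the replicate block, 71, 78, 72, 78, 64 and 20 members rose in the 6 conditions. Replicate numbers did not pair the libraries, since 63 pairs of the same number had r of -0.13 to 0.07 and 10 of 21 libraries lay nearer their own number.

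With one library left out, the members that rose were 70 to 73, 77 to 78, 72, 76 to 78, 61 to 67 and 18 to 22, those that fell 2 to 5, 2, 2, 2, 6 to 9 and 27 to 32 (the 2 of shARID1A.2 without Control replicate 1), and medians 0.31 to 0.34, 0.47 to 0.52, 0.26 to 0.29, 0.26 to 0.29, 0.18 to 0.22 and -0.025 to -0.003. Share ratios were 1.41 to 1.43, 1.42 to 1.46, 1.33 to 1.35, 1.24 to 1.258, 1.18 to 1.21 and 1.12 to 1.14.

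Of 3780 alternative values of named genes, 3521 kept direction and call, 113 lost the call, 94 gained one and 52 turned. With total reads these were RPL26L1 0.043 and RPS10 0.11 (shARID1A.2), RPS7 0.036 (shARID1B.2), and RPL22L1 0.055, RPL26L1 0.090, RPL35 0.033, RPL39 0.080, RPLP1 0.055, RPLP2 0.018, RPS2 0.099, RPS20 0.11, RPS21 0.093, RPS27 0.001 and RPSA 0.047 (shARID1A/B.4.2). Without GC and length trends, with or without the replicate block, they were RPL39 -0.040, RPS21 -0.21, RPS27 -0.006 and RPS7 -0.23 (shARID1A.2), RPL18 -0.039, RPS15 -0.037, RPS20 -0.12 and RPS21 -0.21 (shARID1A.4), RPLP2 -0.064 and RPS21 -0.009 (shARID1B.2), RPL39 -0.011, RPS21 -0.14 and RPS24 -0.097 (shARID1B.3), RPS20 -0.056, RPS27 -0.012 and RPS28 -0.11 (shARID1A/B.2.3), and RPL12 -0.26, RPL18 -0.13 and RPL7 -0.020 (shARID1A/B.4.2). The cause was not tested. At 27954334 reads and more per library, RPL3L and RPL10L remained too low to compare.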
